A study of Mus musculus with 24 samples.

Results

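The genes described here are 34 mouse genes of the integrated stress response and the unfolded protein response, chosen by gene name from a count table of 55341 genes. They form a list of names, drawn up with earlier results of these data known: 18 genes belong to the branch that runs through the transcription factor ATF4, and 16 encode chaperones, folding enzymes and degradation factors of the endoplasmic reticulum (ER). When unfolded protein, amino acid shortage or other stress activates kinases that phosphorylate the initiation factor eIF2α, general protein synthesis slows and the mRNA of ATF4 is translated more, so that ATF4 turns on genes for amino acid uptake and synthesis. In the ER, the sensors ATF6 and IRE1 (IRE1 through splicing of the Xbp1 mRNA) turn on chaperones and the machinery that removes misfolded proteins. Because ATF4 is set largely by translation and XBP1 by splicing, counts of RNA per gene do not measure the activity of either factor.

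The RNA came from 3134 cells, a mouse line labelled as mammary adenocarcinoma, in which IPTG switches on a short hairpin RNA against NIPBL. NIPBL loads the cohesin ring onto DNA and drives loop extrusion. All cells carried this hairpin and a piggyBac construct, which encoded the NIPBL mutants C1-C2, C2 or C1, wild-type NIPBL, or nothing (empty vector), and the labels do not say what the mutants change. For 3 days the cells were held in serum stripped with charcoal, with 1 mM IPTG in every group but the empty-vector cells without IPTG, and then received 100 nM dexamethasone, a glucocorticoid receptor ligand, or its vehicle ethanol for 2 hours. These 6 states (C1-C2, C2, C1, wild-type NIPBL and empty vector with IPTG, and empty vector without IPTG) and 2 treatments make 12 groups of 2 libraries. Empty-vector cells with IPTG are called knockdown cells below, and empty-vector cells without IPTG are called no-IPTG cells. No group received IPTG without the hairpin, so loss of NIPBL cannot be told apart from IPTG or the hairpin in that comparison, and each construct is represented by 1 line. Whether both libraries of a group came from separate cultures is not stated, and every p-value below therefore covers the spread between these libraries alone, which may be technical.

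The libraries held 45038685 to 72857880 counts in dexamethasone and 32532858 to 42711188 in ethanol, and the library numbers of the treatments do not interleave, so that an effect of handling the treatments separately and one of the hormone cannot be told apart. Nipbl, the targeted gene, lay at 48.05 to 73.32 CPM (the usual unit of counts scaled to library size, here with TMM factors) in the 20 libraries with IPTG, against 151.2 to 185.9 CPM in the 4 without. In dexamethasone Nipbl had 66.21 and 55.07 CPM in wild-type NIPBL cells, against 54.42 and 56.52 CPM in knockdown cells. In ethanol it had 70.41 and 62.66 CPM in wild-type NIPBL cells, against 65.06 and 62.59 CPM in knockdown cells. These counts do not show that any construct restored Nipbl RNA, and how much each construct expressed was not tested. Replicate 2 of C1-C2 in ethanol carries a treatment label that names dexamethasone and a title that names ethanol, and it was grouped by its title. Tsc22d3, a standard glucocorticoid target, was at 12.34 CPM there, within the 9.947 to 14.07 CPM of the other ethanol libraries and far below the 147.6 CPM that was the lowest value in dexamethasone. The epithelial character of the label did not show in the markers. Epcam was at 0 in every library, Krt8 reached at most 0.767 CPM and the 8 epithelial markers summed to 0.967 to 2.05 CPM, whereas the 8 mesenchymal markers summed to 5180 to 6330 CPM, with Vim at 3330 to 4460 CPM. Most of the rest of that sum was Col1a2 at 1390 to 1850 CPM. Thy1, Acta2 and Col1a1 of the same list reached at most 0.0292, 0.0551 and 2.05 CPM.

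Of the 34 genes, 31 passed the filter on low counts that also kept 16934 genes of the whole table. Atf3, a stress-induced transcription factor gene, never exceeded 0.0362 CPM, Cth, an enzyme of cysteine synthesis, never exceeded 0.0544 CPM, and Vldlr, a lipoprotein receptor, never exceeded 0.0285 CPM. These 3 belong to the ATF4 branch, of which 15 of 18 genes were tested, against 16 of 16 ER genes. Together the 34 genes took 0.5704% to 0.6439% of the counts of a library.

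Divided by exon length, the levels were highest for resident chaperones of the ER. Hsp90b1, the ER member of the HSP90 family, averaged 258 CPM per kb, Calr, the calcium-binding chaperone calreticulin, 217 CPM per kb, and Hspa5, the chaperone BiP, 173 CPM per kb. Atf4 itself was the most abundant gene of its branch at 123 CPM per kb, followed by the serine synthesis enzyme Phgdh at 120, the mTORC1 inhibitor Ddit4 at 114, the transcription factor Atf5 at 102 and the asparagine synthetase Asns at 98.5 CPM per kb. The lowest of the tested genes were 4 of the ATF4 branch: Ddit3, which encodes the transcription factor CHOP, averaged 4.60 CPM per kb, Ppp1r15a, a subunit of the phosphatase that acts on eIF2α, 3.46, Nupr1, a stress-induced chromatin protein, 2.43, and Pycr1, an enzyme of proline synthesis, 2.06 CPM per kb. Among the tested genes the ER branch spanned 6.51 (Dnajb9) to 258 CPM per kb and the ATF4 branch 2.06 to 123 CPM per kb.

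**Figure D1:**
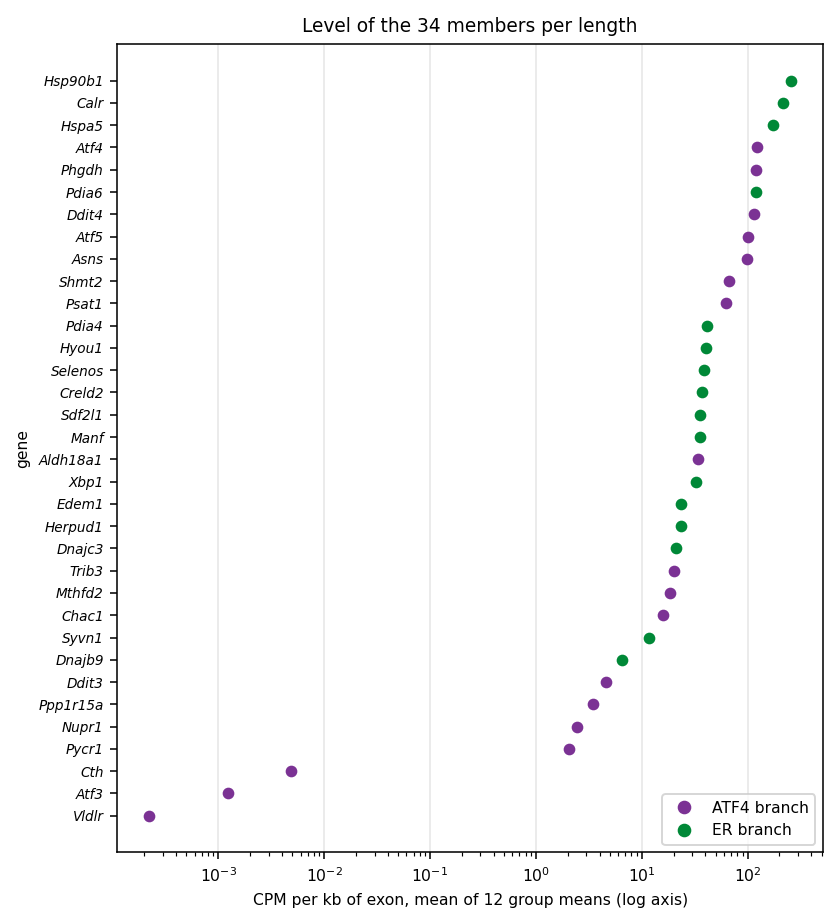
Level of each of the 34 genes in CPM per kb of exon (log axis, mean of the 12 group means), with ATF4-branch genes in purple and ER-branch genes in green. Hsp90b1 lies highest at 258 CPM per kb, and Cth, Atf3 and Vldlr lie below 0.01 CPM per kb.

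Both branches carry known DNA elements near the start of transcription, and the promoters that hold them are shown here for the genes whose levels are described next. ATF4 binds, with a partner such as a C/EBP protein, the element TGATGNAA (CARE), and ATF6 binds with NF-Y the ER stress elements ERSE (CCAAT, then 9 bases of any kind, then CCACG) and ERSE-II (ATTGG, then any base, then CCACG). The 250 bases before the start in the RefSeq promoter table (GRCm38.p6, the assembly of mm10) were searched on both strands for these letters, for 31 of the 34 genes and for 32851 promoters in all. A gene counts where any of its promoters matched, whereas the shares of all promoters count each promoter singly. ERSE was found in 7 of 14 ER genes (Hspa5, Calr, Hsp90b1, Pdia6, Dnajc3, Creld2 and Syvn1) and 0 of 17 ATF4-branch genes, and in 0.113% of all promoters. CARE was found in 6 of 17 ATF4-branch genes (Atf3, Chac1, Asns, Nupr1, Pycr1 and Vldlr) and in 1 of 14 ER genes (Herpud1), and in 3.45% of all promoters. ERSE-II was found in Herpud1 alone among these genes, and in 0.0304% of all promoters. The glucocorticoid response element, searched as G, any base, ACA, 3 bases of any kind, TGT, any base and C, matched 0 of the 31 genes and 0.387% of all promoters. A match is a description of letters and not a bound site. Herpud1, Syvn1 and Dnajc3 are printed over the 250 bases because their levels moved with dexamethasone. Capitals mark ERSE in Syvn1 and Dnajc3, and in Herpud1 they mark first a CARE in reverse complement and then ERSE-II:

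Herpud1, chr8:94386179-94386428, plus strand: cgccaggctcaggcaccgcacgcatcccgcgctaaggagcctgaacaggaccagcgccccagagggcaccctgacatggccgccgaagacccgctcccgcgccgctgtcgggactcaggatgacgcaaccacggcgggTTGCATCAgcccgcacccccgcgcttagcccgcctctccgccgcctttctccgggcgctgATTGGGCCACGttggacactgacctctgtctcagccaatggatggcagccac

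Syvn1, chr19:6046326-6046575, plus strand: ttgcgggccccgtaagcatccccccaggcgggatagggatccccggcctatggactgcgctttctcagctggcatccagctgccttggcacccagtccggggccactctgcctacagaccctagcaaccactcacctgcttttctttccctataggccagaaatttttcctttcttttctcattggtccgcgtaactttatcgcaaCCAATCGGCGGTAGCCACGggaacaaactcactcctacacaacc

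Dnajc3, chr14:118937682-118937931, plus strand: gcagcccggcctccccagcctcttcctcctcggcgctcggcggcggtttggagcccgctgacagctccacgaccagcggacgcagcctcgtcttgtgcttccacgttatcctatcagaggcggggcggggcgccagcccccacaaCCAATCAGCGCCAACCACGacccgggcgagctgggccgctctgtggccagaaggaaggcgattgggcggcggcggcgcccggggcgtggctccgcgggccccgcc

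Shorter windows around ERSE (capitals) are given for Pdia6, which was lower in knockdown cells, and for Hsp90b1, which was lower in dexamethasone and has the element on both strands. The window around CARE (capitals) in Asns, which was higher in the C2 line, completes the set:

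Pdia6, chr12:17266486-17266514, plus strand: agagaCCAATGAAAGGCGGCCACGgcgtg

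Hsp90b1, chr10:86705528-86705556, plus strand: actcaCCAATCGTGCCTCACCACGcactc

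Hsp90b1, chr10:86705633-86705661, minus strand: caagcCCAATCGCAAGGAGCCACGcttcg

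Asns, chr6:7693214-7693243, minus strand: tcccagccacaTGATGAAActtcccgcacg

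The first comparison asked which genes changed when the hairpin was switched on in empty-vector cells. In ethanol 4 of 31 tested genes passed the test (1 higher, 3 lower), where 13.4% of all genes did (7.16% higher, 6.24% lower). In dexamethasone 8 passed (3 higher, 5 lower), where 16.9% of all genes did (8.36% higher, 8.49% lower). A gene passed at an adjusted p under 0.05 with the quasi-likelihood test of edgeR, with Benjamini-Hochberg adjustment over all 16934 genes. The median log2 change of the 31 genes was -0.08 in ethanol and -0.08 in dexamethasone, against -0.01 and 0.00 over all genes. Trib3 was higher in knockdown cells in both treatments, and Herpud1 and Pdia6 were lower in both. Among all genes 4.73% were higher in both treatments and 4.48% lower in both, which are shares near those of the 31 genes.

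Trib3, a pseudokinase induced by ATF4 and CHOP that binds AKT, had 50.5 and 51.2 CPM in knockdown cells in ethanol, against 32.1 and 29.0 CPM in no-IPTG cells. In dexamethasone it had 45.1 and 44.4 CPM in knockdown cells, against 27.1 and 25.1 CPM in no-IPTG cells. No library of knockdown cells overlapped with no-IPTG cells in either treatment. The log2 changes were 0.73 ± 0.15 in ethanol (SE; edgeR adjusted p = 0.00504) and 0.78 ± 0.15 in dexamethasone (SE; edgeR adjusted p = 0.00244), or 1.66-fold and 1.71-fold.

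Atf4 itself did not pass in either treatment. It had 295 and 263 CPM in knockdown cells in ethanol, against 321 and 306 CPM in no-IPTG cells, a log2 change of -0.17 ± 0.11 that did not pass (SE; edgeR adjusted p = 0.379). In dexamethasone Atf4 had 301 and 238 CPM in knockdown cells, against 338 and 279 CPM in no-IPTG cells, and the groups overlapped (edgeR adjusted p = 0.274). Ddit4, whose product restrains mTORC1, had 246 and 252 CPM in knockdown cells in dexamethasone, against 518 and 540 CPM in no-IPTG cells. This was the largest fall among the 31 genes, 2.13-fold (log2 change -1.09 ± 0.13, SE; edgeR adjusted p = 3.48e-05). In ethanol Ddit4 had 87.4 and 95.3 CPM in knockdown cells, against 111 and 116 CPM in no-IPTG cells, and the change of -0.31 ± 0.13 did not pass (SE; edgeR adjusted p = 0.146).

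Ddit3 had 5.11 and 5.65 CPM in knockdown cells in dexamethasone, against 3.82 and 4.13 CPM in no-IPTG cells, and was called higher (log2 change 0.43 ± 0.12, SE; edgeR adjusted p = 0.0177). In ethanol its values were 11.8 and 11 CPM in knockdown cells and 8.99 and 10.2 CPM in no-IPTG cells, without passing (edgeR adjusted p = 0.161). Ddit3 shares exon sequence with the methionyl-tRNA synthetase gene Mars and the transcript Gm4189 on the opposite strand, and the strand setting of the counting is not given in the sources used here. Of the enzymes of proline synthesis, Pycr1 fell 1.37-fold in ethanol (6.88 ± 1.29 CPM in knockdown cells against 9.46 ± 0.878 CPM in no-IPTG cells, SD, n = 2 each; edgeR adjusted p = 0.0213) and Aldh18a1 fell by 0.23 on the log2 scale in dexamethasone (135 ± 12 against 159 ± 1.14 CPM, SD, n = 2 each; edgeR adjusted p = 0.0264).

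In the ER branch, Pdia6, a protein disulphide isomerase, had 433 and 473 CPM in knockdown cells in ethanol, against 534 and 587 CPM in no-IPTG cells. In dexamethasone it had 438 and 420 CPM in knockdown cells, against 549 and 523 CPM in no-IPTG cells. The groups did not overlap, and the falls were 1.24-fold and 1.25-fold (log2 changes -0.31 ± 0.07 and -0.32 ± 0.07, SE; edgeR adjusted p = 0.00232 and 0.00118). Pdia6 shares exon sequence with Atp6v1c2 on the opposite strand. Herpud1, an ER membrane protein of the degradation complex, had 73.8 and 69.9 CPM in knockdown cells in dexamethasone, against 102 and 92.9 CPM in no-IPTG cells (log2 change -0.44 ± 0.06, SE; edgeR adjusted p = 1.57e-05). In ethanol it had 31.3 and 29.9 CPM in knockdown cells, against 37.7 and 32.9 CPM in no-IPTG cells (log2 change -0.21 ± 0.07, SE; edgeR adjusted p = 0.0447). That call of Herpud1 in ethanol was lost with another library scaling (RLE factors), with DESeq2 and with only the compared libraries in the fit.

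Neither Hspa5 nor Xbp1 passed in this comparison. Hspa5 had 684 and 689 CPM in knockdown cells in dexamethasone, against 665 and 702 CPM in no-IPTG cells, and 738 and 788 CPM in knockdown cells in ethanol, against 765 and 853 CPM in no-IPTG cells (edgeR adjusted p = 0.972 and 0.55). Xbp1, which encodes the transcription factor made from spliced mRNA downstream of IRE1, had 114 and 112 CPM in knockdown cells in dexamethasone, against 116 and 111 CPM in no-IPTG cells. In ethanol it had 101 and 106 CPM in knockdown cells, against 111 and 115 CPM in no-IPTG cells, which did not pass (edgeR adjusted p = 0.101). In dexamethasone the cochaperone Dnajb9 was called higher (14.6 ± 2.62 CPM in knockdown cells against 11.9 ± 0.00422 CPM in no-IPTG cells, SD, n = 2 each; edgeR adjusted p = 0.0207) and the ER chaperone Hyou1 lower (301 ± 6.47 against 339 ± 4.81 CPM, SD, n = 2 each; edgeR adjusted p = 0.0241). The 2 libraries of knockdown cells had 12.8 and 16.5 CPM of Dnajb9. The calls of Dnajb9 and Hyou1 were lost with only the compared libraries in the fit.

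Some of these calls rested on single libraries. In dexamethasone Ddit4, Trib3, Herpud1 and Pdia6 passed with each library left out, while Ddit3 (adjusted p = 0.121), Dnajb9 (0.0864), Hyou1 (0.0602) and Aldh18a1 (0.118) were lost with edgeR without replicate 1 of no-IPTG cells, as they were without replicate 2 of knockdown cells (0.176, 0.579, 0.191 and 0.35), each of which left 4 calls. Hyou1 was also lost without replicate 1 of knockdown cells (0.0531), and Aldh18a1, Dnajb9 and Hyou1 without replicate 2 of no-IPTG cells (0.0905, 0.0905 and 0.116). In ethanol 2 calls were left without replicate 1 or 2 of knockdown cells or without replicate 2 of no-IPTG cells. With edgeR, Trib3 was lost without replicate 2 of no-IPTG cells (adjusted p = 0.0541), Pdia6 without that library (0.0616) and without replicate 1 of knockdown cells (0.0657), Pycr1 without replicate 1 of no-IPTG cells (0.227) and replicate 2 of knockdown cells (0.331), and Herpud1 without replicate 1 of no-IPTG cells (0.537) and without either library of knockdown cells (0.0887 and 0.31). Among the mesenchymal markers 5 of 6 tested passed in ethanol (4 higher, 1 lower) and 4 in dexamethasone (3 higher, 1 lower), and the 8 summed to 5810 to 5920 CPM in knockdown cells against 5320 to 5580 CPM in no-IPTG cells in ethanol and to 5790 to 6040 CPM against 5450 to 5900 CPM in dexamethasone. Their part in the results was not tested. In RNA of whole cultures, fewer cells with a transcript and less of it per cell cannot be told apart.

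Around these genes, other lists of the same pathways also held called genes. Over all genes 7.16% rose and 6.24% fell in ethanol, and 8.36% rose and 8.49% fell in dexamethasone. Among 18 tRNA synthetases, many of which ATF4 is known to induce, 4 fell and 0 rose in ethanol and 5 fell and 0 rose in dexamethasone, with medians of -0.07 and -0.08 on the log2 scale. Cars, the cysteinyl-tRNA synthetase, fell 1.29-fold in ethanol (114 CPM in knockdown cells against 147 CPM in no-IPTG cells; edgeR adjusted p = 0.000535) and 1.26-fold in dexamethasone. Of 26 other ATF4 targets tested, 3 rose and 3 fell in ethanol and 3 rose and 7 fell in dexamethasone. The cystine transporter gene Slc7a11 was 2.90-fold higher in ethanol (33.8 against 11.5 CPM; edgeR adjusted p = 0.000182), while the stress cytokine gene Gdf15 was 2.74-fold lower (2.17 against 5.95 CPM; edgeR adjusted p = 1.56e-05) and Slc7a1, a transporter of cationic amino acids, 1.36-fold lower. Of 13 stress sensors and eIF2 regulators, 1 rose and 2 fell in each treatment. The sensor gene Atf6 was lower in ethanol (142 against 170 CPM; edgeR adjusted p = 0.00843), and Eif2ak2, an eIF2α kinase activated by double-stranded RNA, was higher (62.9 against 53.4 CPM; edgeR adjusted p = 0.0464). Of 25 other ER folding and degradation genes, 2 rose and 0 fell in ethanol and 2 rose and 4 fell in dexamethasone.

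**Figure D2:**
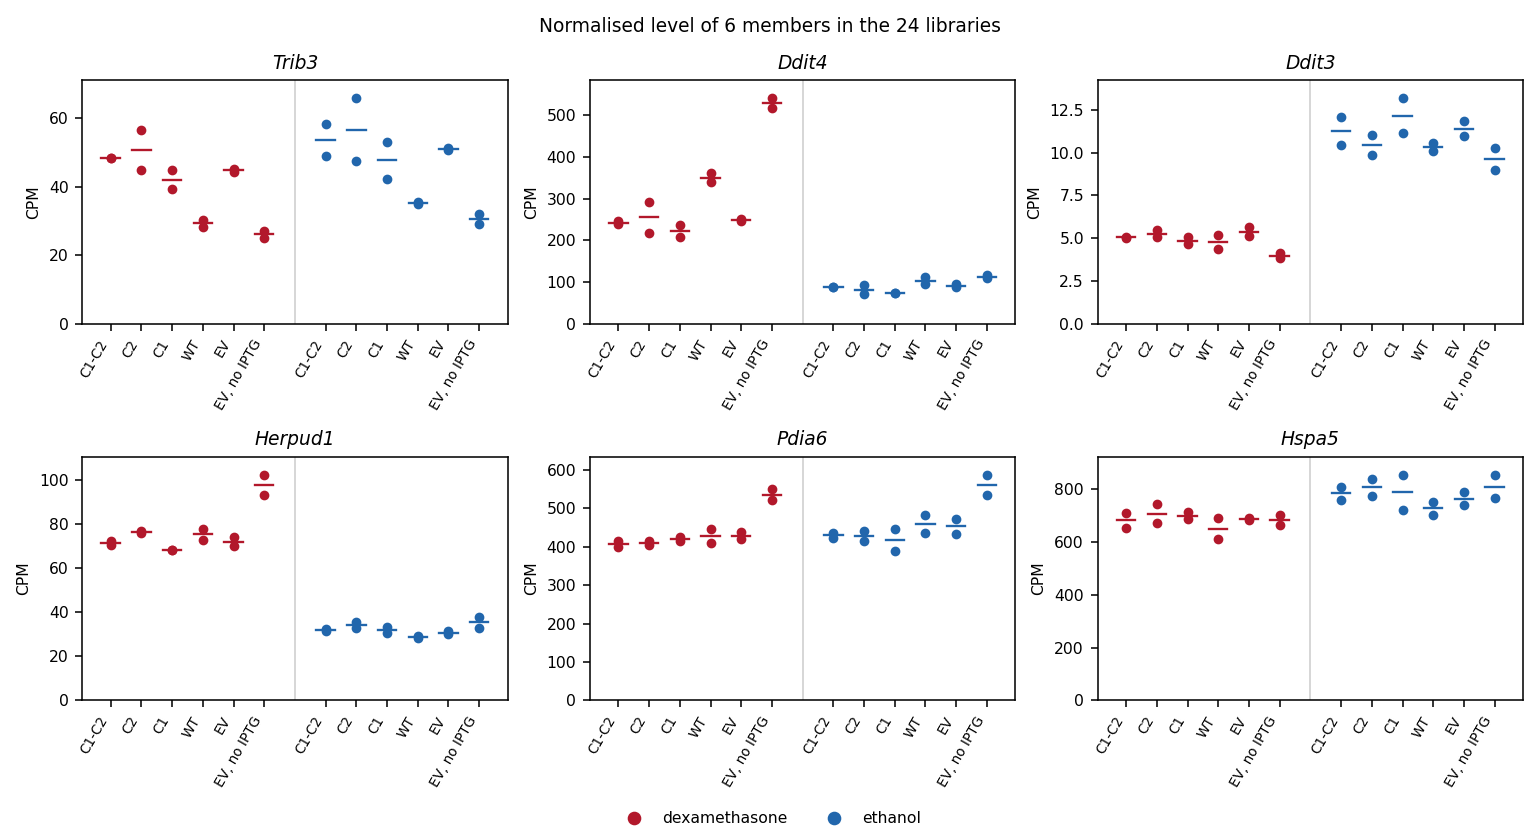
CPM of Trib3, Ddit4, Ddit3, Herpud1, Pdia6 and Hspa5 in the 24 libraries, with dexamethasone in red on the left and ethanol in blue on the right of each panel; points are libraries and bars are means of the 2 libraries of a group. EV stands for empty vector and WT for wild-type NIPBL, all with IPTG unless marked. Ddit4 lies at 518 and 540 CPM in no-IPTG cells in dexamethasone and at no more than 362 CPM in any library with IPTG.

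The next comparison asked how the genes responded to dexamethasone within each state. In no-IPTG cells 15 of 31 genes passed, 9 higher and 6 lower, where 38% of all genes did (19.8% higher, 18.2% lower). In the states with IPTG, 15 passed in C1-C2 cells (32.3% of all genes), 11 in C2 cells (32.5%), 13 in C1 cells (32.2%), 10 in wild-type NIPBL cells (28.5%) and 12 in knockdown cells (32.5%). The share of the 31 genes called was 48.4% in no-IPTG, 48.4% in C1-C2, 35.5% in C2, 41.9% in C1, 32.3% in wild-type NIPBL and 38.7% in knockdown cells. In C2 and wild-type NIPBL cells this was close to the share of all genes. Higher in all 6 states were 5 genes (Ddit4, Phgdh, Shmt2, Herpud1 and Syvn1) and lower in all 6 were 4 (Ddit3, Hsp90b1, Dnajb9 and Dnajc3), where 9.53% and 9.22% of all genes were. Another 13 genes were called in none of the 6 states, and 0 were called in opposite directions in different states.

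Ddit4, a known direct target of the glucocorticoid receptor, had the largest response of the 31 genes. In the 12 dexamethasone libraries it had a lowest value of 209, a median of 249 and a highest of 540 CPM, against 70.7, 91.2 and 116 CPM in the 12 ethanol libraries. The treatments did not overlap, and the no-IPTG libraries at 518 and 540 CPM stood above the other dexamethasone libraries. Its rise was 4.67-fold in no-IPTG cells (log2 change 2.22 ± 0.13, SE; edgeR adjusted p = 5.61e-09). In the other states the log2 change was 1.45 in C1-C2, 1.64 in C2, 1.57 in C1, 1.76 in wild-type NIPBL and 1.44 in knockdown cells, each with an edgeR adjusted p of 8.09e-07 or less.

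Ddit3, the CHOP gene, moved the other way. It had a lowest value of 3.82, a median of 5.06 and a highest of 5.65 CPM in dexamethasone, against 8.99, 10.8 and 13.2 CPM in ethanol, without overlap. The fall was 2.41-fold in no-IPTG cells (log2 change -1.27 ± 0.12, SE; edgeR adjusted p = 8.26e-09) and lay between 1.99-fold in C2 cells and 2.51-fold in C1 cells elsewhere. Atf4 showed no call in any state: its values were 234, 285 and 338 CPM (lowest, median and highest) in dexamethasone and 256, 297 and 344 CPM in ethanol, and the treatments overlapped.

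Among the enzymes downstream of ATF4, Phgdh, the first enzyme of serine synthesis, had 306, 341 and 368 CPM (lowest, median and highest) in dexamethasone, against 237, 260 and 278 CPM in ethanol, without overlap. In no-IPTG cells it rose 1.33-fold (log2 change 0.41 ± 0.06, SE; edgeR adjusted p = 7.43e-06). Shmt2, a mitochondrial enzyme of serine and folate metabolism, rose 1.22-fold there (236 ± 6.72 CPM in dexamethasone against 194 ± 7.97 CPM in ethanol, SD, n = 2 each; edgeR adjusted p = 0.00584). Aldh18a1 rose in 3 states, Atf5 in 2 and Mthfd2, a mitochondrial folate enzyme, in 1. Nupr1 fell in C1-C2 cells (4.30 ± 0.0166 CPM in dexamethasone against 7.80 ± 0.531 CPM in ethanol, SD, n = 2 each; edgeR adjusted p = 0.000325). Asns, Psat1, Chac1, Trib3, Pycr1 and Ppp1r15a were called in no state.

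In the ER branch the response split by gene. Herpud1 had 68.2 to 102 CPM in the dexamethasone libraries, against 28.4 to 37.7 CPM in the ethanol libraries, and rose 2.75-fold in no-IPTG cells (log2 change 1.46 ± 0.07, SE; edgeR adjusted p = 3.44e-15). Its rise was smallest in C1 cells at 2.14-fold. Syvn1, the ubiquitin ligase of the same degradation complex, rose 1.25-fold in no-IPTG cells (63.7 ± 2.92 CPM in dexamethasone against 50.9 ± 1.21 CPM in ethanol, SD, n = 2 each; edgeR adjusted p = 3.85e-05). Hyou1 rose in 4 states, Sdf2l1, an ER-resident partner of BiP cochaperones, in 3, and the secreted ER stress protein Manf in 2.

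Hsp90b1, Dnajb9 and Dnajc3 fell in all 6 states. Hsp90b1 had 946 ± 18.3 CPM in dexamethasone, against 1260 ± 94.5 CPM in ethanol in no-IPTG cells (SD, n = 2 each; log2 change -0.41 ± 0.06, SE; edgeR adjusted p = 7.50e-06), and fell 1.25-fold to 1.34-fold in the other states. Dnajb9, a J-domain protein that assists BiP, had 11.9 ± 0.00422 CPM in dexamethasone, against 17.9 ± 0.667 CPM in ethanol (SD, n = 2 each; edgeR adjusted p = 9.30e-06). Dnajc3, another J-domain protein, fell 1.16-fold (edgeR adjusted p = 0.00177). Hspa5 had 665 and 702 CPM in dexamethasone, against 765 and 853 CPM in ethanol in no-IPTG cells (edgeR adjusted p = 0.0168), and was called in 1 other state, C1-C2, where the edgeR adjusted p was 0.05 after rounding. Edem1, which marks misfolded glycoproteins for degradation, fell in 4 states, while Xbp1, Pdia4, Pdia6, Creld2, Calr and Selenos were called in none. Xbp1 had 101, 107 and 116 CPM (lowest, median and highest) in dexamethasone and 97.4, 103 and 115 CPM in ethanol, and the treatments overlapped. Of the genes printed above with an ERSE, Syvn1 thus rose, Hsp90b1 and Dnajc3 fell, and Pdia6 did not pass.

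Among the genes called in all 6 states, Ddit3, Ddit4 and Herpud1 kept their call in all 6 states with each library left out and after a smooth trend with gene length and GC content was removed. Without that trend the counts of calls were 9 in no-IPTG, 7 in C1-C2, 6 in C2, 6 in C1, 8 in wild-type NIPBL and 7 in knockdown cells. As shares of the 31 genes these were 29%, 22.6%, 19.4%, 19.4%, 25.8% and 22.6%. Calls over all genes dropped too, to 22.2%, 20.8%, 19.4%, 20%, 21.2% and 20.3% in the same order. In C2 and C1 cells the 31 genes were then called about as often as all genes. Of the ATF4 branch 2 genes were then higher and 3 lower in no-IPTG and also in C1 cells. The counts were 1 and 3 in C1-C2, 1 and 2 in C2, and 2 and 2 in wild-type NIPBL and in knockdown cells. With the trend kept, no-IPTG and C1 cells had 5 and 1. C1-C2 had 4 and 2, C2 and wild-type NIPBL 3 and 1, and knockdown cells 4 and 1. With it removed, the lower calls in each state thus included genes not called there before. Shmt2, Syvn1, Dnajc3, Hyou1, Aldh18a1, Atf5, Sdf2l1, Manf and Hspa5 then kept no call, while Phgdh kept 3 of 6, Hsp90b1 4 of 6, Dnajb9 2 of 6 and Edem1 3 of 4. With each library left out, Phgdh and Hsp90b1 kept 6 of 6 states, Syvn1 5, Dnajb9 4 and Dnajc3 2 of 6, and Shmt2, Aldh18a1, Edem1, Sdf2l1, Manf, Atf5, Mthfd2 and Hspa5 kept 0. The number of calls fell to 6 in wild-type NIPBL without its replicate 1 in dexamethasone, to 8 in C1 without its replicate 2 in dexamethasone, and to 8 and 9 in C1-C2 without its replicate 1 in ethanol and in dexamethasone. Moving the library with disagreeing labels into the dexamethasone group of C1-C2 left 0 calls there.

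In the wider lists, 11 of 26 other ATF4 targets rose and 5 fell in no-IPTG cells, where 19.8% of all genes rose and 18.2% fell. Got1, an aspartate aminotransferase, had 98.4 CPM in dexamethasone against 51.4 CPM in ethanol, and Cebpb, a transcription factor gene and glucocorticoid target, had 575 against 141 CPM (edgeR adjusted p = 3.96e-12 and 1.08e-08). Slc3a2 and Slc7a5, which form a transporter of large neutral amino acids, rose 1.43-fold and 1.45-fold. Of 25 other ER genes 8 rose and 7 fell, of 18 tRNA synthetases 3 rose and 2 fell, and of 13 sensors and regulators 2 rose and 4 fell. Creld1 rose 2.26-fold and Ufm1, a ubiquitin-like protein of ER quality control, fell 1.40-fold (edgeR adjusted p = 1.01e-08 and 9.76e-06).

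**Figure D3:**
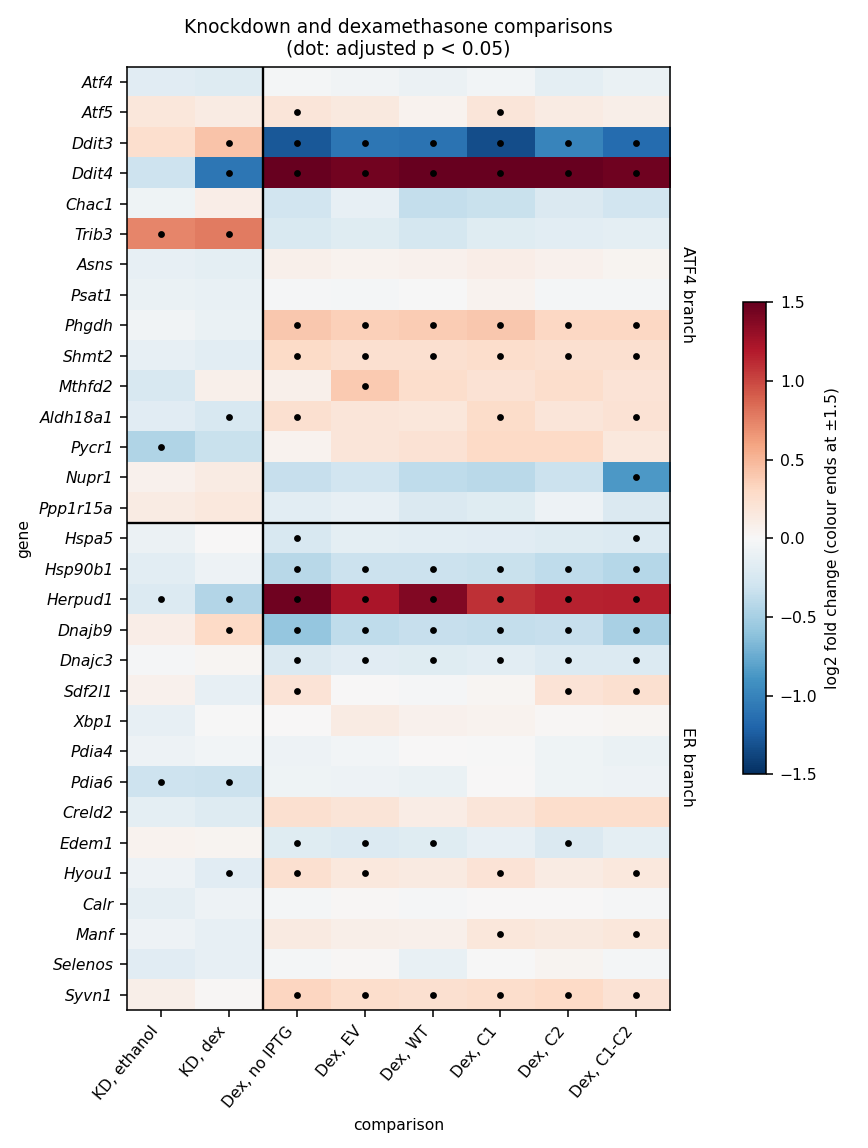
Log2 fold changes of the 31 tested genes for knockdown over no-IPTG cells (KD, left) and for dexamethasone over ethanol in the 6 states (Dex, right), with dots at adjusted p under 0.05 and colours that end at ±1.5. Ddit4, Phgdh, Shmt2, Herpud1 and Syvn1 are red and dotted, and Ddit3, Hsp90b1, Dnajb9 and Dnajc3 blue and dotted, in all 6 dexamethasone columns.

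Whether knockdown changed the response to hormone was tested as the difference of responses, knockdown cells minus no-IPTG cells. With edgeR 0 of 31 genes passed, where 0.171% of all genes did, and 2 genes, Ddit4 and Herpud1, had an unadjusted p under 0.05, where 5.06% of all genes did. Ddit4 rose by 1.44 on the log2 scale in knockdown cells and by 2.22 in no-IPTG cells. The difference of -0.78 ± 0.18 (SE) had an unadjusted p of 0.00078 and an edgeR adjusted p of 0.169, which did not pass. It passed with DESeq2 (adjusted p = 0.015) and with only the 8 libraries of these states in the fit (adjusted p = 0.000106), and its adjusted p ranged from 0.000106 to 0.687 over 16 alternatives. Herpud1 rose by 1.23 in knockdown cells and by 1.46 in no-IPTG cells, a difference of -0.23 ± 0.09 (SE; edgeR adjusted p = 0.801).

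Wild-type NIPBL and its mutants were compared with empty vector, all with IPTG, as the mean of both treatments, so that 4 libraries stood against 4. The empty-vector libraries are shared by these comparisons. An SD with n = 4 below spans both treatments, so it includes the change with hormone, which the test does not count as spread. For wild-type NIPBL 2 of 31 genes passed, where 8.65% of all genes did (4.19% higher, 4.45% lower), and both belong to the ATF4 branch. Trib3 had 30.2 and 28.3 CPM in wild-type NIPBL cells in dexamethasone, against 45.1 and 44.4 CPM with empty vector. In ethanol it had 34.9 and 35.5 CPM in wild-type NIPBL cells, against 50.5 and 51.2 CPM with empty vector. All 4 libraries with wild-type NIPBL lay below all 4 with empty vector, and the fall was 1.49-fold (log2 change -0.57 ± 0.11, SE; edgeR adjusted p = 0.00412). The levels of Trib3 with wild-type NIPBL were next to the 27.1 and 25.1 CPM (dexamethasone) and 32.1 and 29.0 CPM (ethanol) of no-IPTG cells, which enter no test here.

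Ddit4 was the other gene that passed. It had 339 and 362 CPM in wild-type NIPBL cells in dexamethasone, against 246 and 252 CPM with empty vector, and 95.5 and 111 CPM in wild-type NIPBL cells in ethanol, against 87.4 and 95.3 CPM with empty vector. The log2 change was 0.34 ± 0.09 (SE; edgeR adjusted p = 0.0351), and within a treatment it passed in dexamethasone (0.49; edgeR adjusted p = 0.0432) and not in ethanol (0.18; edgeR adjusted p = 0.713). The call over both treatments was lost with no filter, and with a term for replicate number in each treatment (the replicate block). The call of Ddit4 was lost without any 1 of 7 of the 8 libraries, the exception being wild-type NIPBL replicate 1 in ethanol, with adjusted p-values of up to 0.13, while Trib3 passed without each. Pdia6 and Herpud1, lower in knockdown cells, did not pass for wild-type NIPBL: Pdia6 had 409 and 445 CPM in wild-type NIPBL cells in dexamethasone, against 438 and 420 CPM with empty vector, and Herpud1 had 72.7 and 77.6 CPM, against 73.8 and 69.9 CPM. Of the wider lists, 2 of 26 other ATF4 targets rose and 5 fell and 3 of 18 tRNA synthetases and 3 of 25 other ER genes fell. Over all genes 4.19% rose and 4.45% fell. Slc7a11 was lower with wild-type NIPBL (19.0 CPM against 29.6 CPM with empty vector; edgeR adjusted p = 0.0115).

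With C1-C2 0 of 31 genes passed against empty vector and with C1 also 0, where 0.437% and 1.43% of all genes did (0.307% and 0.685% higher, 0.13% and 0.75% lower), and 4 and 3 genes had an unadjusted p under 0.05, where 11.5% and 13.8% of all genes had. With DESeq2 the counts were 0 and 0. With C2 6 of 31 genes passed, where 3.87% of all genes did (2.11% higher, 1.76% lower): 5 genes of the ATF4 branch were higher and Syvn1 was lower (54.0 ± 6.59 CPM in C2 cells against 59.4 ± 6.17 CPM with empty vector, SD, n = 4 each; edgeR adjusted p = 0.0445). Asns had 297 and 315 CPM in C2 cells in dexamethasone, against 272 and 236 CPM with empty vector, and 280 and 306 CPM in C2 cells in ethanol, against 251 and 238 CPM with empty vector. All 4 libraries of C2 lay above all 4 of empty vector (log2 change 0.27 ± 0.05, SE; edgeR adjusted p = 0.00422). Aldh18a1 was 1.17-fold, Atf5 1.17-fold, Shmt2 1.17-fold and the serine synthesis enzyme Psat1 1.14-fold higher (edgeR adjusted p = 0.0122, 0.0108, 0.0258 and 0.0147). Without replicate 2 of empty vector in ethanol or in dexamethasone 1 call was left, Asns, and without replicate 2 of C2 in ethanol or in dexamethasone 2 calls were left. With the fit limited to either treatment 0 passed. The call of Syvn1 was lost in 11 of 16 alternatives. Among them were RLE factors, no filter, only the compared libraries in the fit, and the length and GC trend removed.

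The mutants were then set against wild-type NIPBL, over the same mean of both treatments and with shared wild-type libraries. In C2 cells 10 of 15 tested genes of the ATF4 branch were higher and 1 was lower, while 0 of 16 ER genes passed, where 12.9% of all genes did (6.87% higher, 5.98% lower). Of the ER genes 5 had an unadjusted p under 0.05 with edgeR. The number called, all higher, was 6 with the replicate block, 4 with no filter, 4 without the length and GC trend, 2 with DESeq2 and 2 without Gm26917 and Gm42418, the most abundant genes, each beside 10 higher and 1 lower in the ATF4 branch. In C1 cells 4 ATF4-branch genes were higher and 1 lower, and 1 ER gene was higher (9.66% of all genes passed, 5.24% higher and 4.41% lower). In C1-C2 cells 1 was higher and 1 lower, both of the ATF4 branch (4.86% of all genes passed, 2.67% higher and 2.19% lower). The median log2 change of the 15 ATF4-branch genes was 0.11 in C1-C2, 0.23 in C2 and 0.12 in C1, that of the 16 ER genes was 0.03, 0.06 and 0.09, and that of all genes was -0.01, 0.00 and -0.01.

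Trib3 and Ddit4 passed in all 3 mutants and in opposite directions. Trib3 had 48.5 and 48.4 CPM in C1-C2 cells, 44.8 and 56.4 CPM in C2 cells and 39.2 and 44.8 CPM in C1 cells in dexamethasone, against 30.2 and 28.3 CPM in wild-type NIPBL cells. In ethanol it had 49.0 and 58.1 CPM in C1-C2 cells, 47.5 and 65.7 CPM in C2 cells and 42.3 and 52.9 CPM in C1 cells, against 34.9 and 35.5 CPM in wild-type NIPBL cells. Every mutant library lay above every wild-type library, with log2 changes of 0.67 ± 0.11 in C1-C2, 0.73 ± 0.11 in C2 and 0.48 ± 0.11 in C1 (SE; edgeR adjusted p = 0.00211, 0.000552 and 0.0107). Ddit4 had 240 and 245 CPM in C1-C2 cells, 293 and 218 CPM in C2 cells and 237 and 209 CPM in C1 cells in dexamethasone, against 339 and 362 CPM in wild-type NIPBL cells. In ethanol it had 88.1 and 89.1 CPM in C1-C2 cells, 93.4 and 70.7 CPM in C2 cells and 75.0 and 74.9 CPM in C1 cells, against 95.5 and 111 CPM in wild-type NIPBL cells. Within each treatment the mutant libraries lay below the wild-type libraries, with log2 changes over both of -0.38, -0.39 and -0.56 in C1-C2, C2 and C1 (edgeR adjusted p = 0.0298, 0.0131 and 0.00136).

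Besides Trib3, the genes higher in C2 cells than with wild-type NIPBL were led by Chac1, an enzyme that degrades glutathione, at 1.45-fold (29.8 ± 6.71 against 20.5 ± 3.79 CPM, SD, n = 4 each; edgeR adjusted p = 0.0209) and Mthfd2 at 1.30-fold (71.7 ± 10.8 against 55.0 ± 6.12 CPM, SD, n = 4 each; edgeR adjusted p = 0.00363). Asns was 1.23-fold (300 ± 14.9 against 245 ± 11.6 CPM, SD, n = 4 each; edgeR adjusted p = 0.000588), Atf5 1.22-fold and Psat1 1.17-fold higher, and in these 3 genes the libraries did not overlap. Atf4 had 283 and 309 CPM in C2 cells in dexamethasone, against 273 and 234 CPM with wild-type NIPBL, and 312 and 344 CPM in C2 cells in ethanol, against 282 and 256 CPM with wild-type NIPBL. The groups were just separate, at 1.19-fold (log2 change 0.26 ± 0.08, SE; edgeR adjusted p = 0.0479). Shmt2, Aldh18a1 and Phgdh were 1.19-fold, 1.17-fold and 1.10-fold higher, while Ddit3, Pycr1, Nupr1 and Ppp1r15a did not pass. Nipbl itself was slightly lower in C2 cells (54.6 CPM against 63.6 CPM; edgeR adjusted p = 0.0438), and its part in these differences was not tested. In C1 cells Mthfd2, Asns, Phgdh and, in the ER branch, Edem1 were higher (1.22-fold, 1.14-fold, 1.10-fold and 1.11-fold; edgeR adjusted p = 0.025, 0.0227, 0.0339 and 0.0227).

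For C2, Trib3, Asns, Atf5, Psat1, Mthfd2, Shmt2 and Aldh18a1 passed with edgeR with each library left out, and 7 calls remained without wild-type NIPBL replicate 2 in ethanol. Atf4 was lost in 6 of the 8 such fits, with adjusted p-values up to 0.174, Phgdh in 5 (up to 0.143), Chac1 in 4 (up to 0.0956) and Ddit4 without wild-type NIPBL replicate 2 in ethanol (0.0596). With C1 the count lay between 1 without replicate 2 of C1 in ethanol and 13 without its replicate 1 in ethanol, and it was 2 without either of its dexamethasone libraries. Of the calls for C1, Ddit4 passed without each library, and Mthfd2, Asns, Phgdh and Edem1 were lost in 6, 4, 5 and 4 of the 8 such fits. Trib3 in C1 was lost without replicate 2 of C1 in ethanol (adjusted p = 0.053) or in dexamethasone (0.0504). With C1-C2 Trib3 passed without each library, and Ddit4 was lost without all but wild-type NIPBL replicate 1 in ethanol (up to 0.136). Within a treatment, in the fit with all 24 libraries, Trib3, Asns and Psat1 passed for C2 in both.

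The tRNA synthetases were singled out in the mutants after their values had been seen, as were the genes named with them here. Of 18 genes, 14 were higher and 0 lower in C2 cells than with wild-type NIPBL, 7 were higher in C1 cells and 5 in C1-C2 cells, with median log2 changes of 0.17, 0.10 and 0.12. Over all genes 6.87%, 5.24% and 2.67% were higher in the same order. Against empty vector 8 of the 18 genes were higher in C2 cells, where 2.11% of all genes were, and 0 in each of the other mutants. Aars, the alanyl-tRNA synthetase, averaged 339 CPM in C2 cells against 279 CPM with wild-type NIPBL, and Sars, the seryl-tRNA synthetase, 182 against 156 CPM (edgeR adjusted p = 0.000173 and 0.000215). With only the compared libraries in the fit 9 of 18 passed for C2 against wild-type NIPBL, and the count was 7 without replicate 2 of C2 in dexamethasone and 8 without wild-type NIPBL replicate 2 in ethanol. For C2 against empty vector it was 0 without replicate 2 of empty vector in either treatment, and 2 and 1 without replicate 2 of C2 in ethanol and in dexamethasone. For C1 it was 2 without replicate 2 of C1 in ethanol, and 4 without either dexamethasone library of C1 or without wild-type NIPBL replicate 2 in ethanol. Of 26 other ATF4 targets 11 were higher and 2 lower in C2 cells than with wild-type NIPBL, among them Slc3a2 (162 against 136 CPM; edgeR adjusted p = 0.000106), and of 25 other ER genes 4 were higher and 1 lower. C2 was not tested directly against the other mutants. The 8 mesenchymal markers summed to 5880 to 5920 CPM in C2 cells in dexamethasone, against 5180 to 5270 CPM with wild-type NIPBL, and to 5650 to 5990 CPM in C2 cells in ethanol, against 5310 to 5600 CPM, with 2 of 6 tested markers higher and 1 lower. Their part in the results was not tested.

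**Figure D4:**
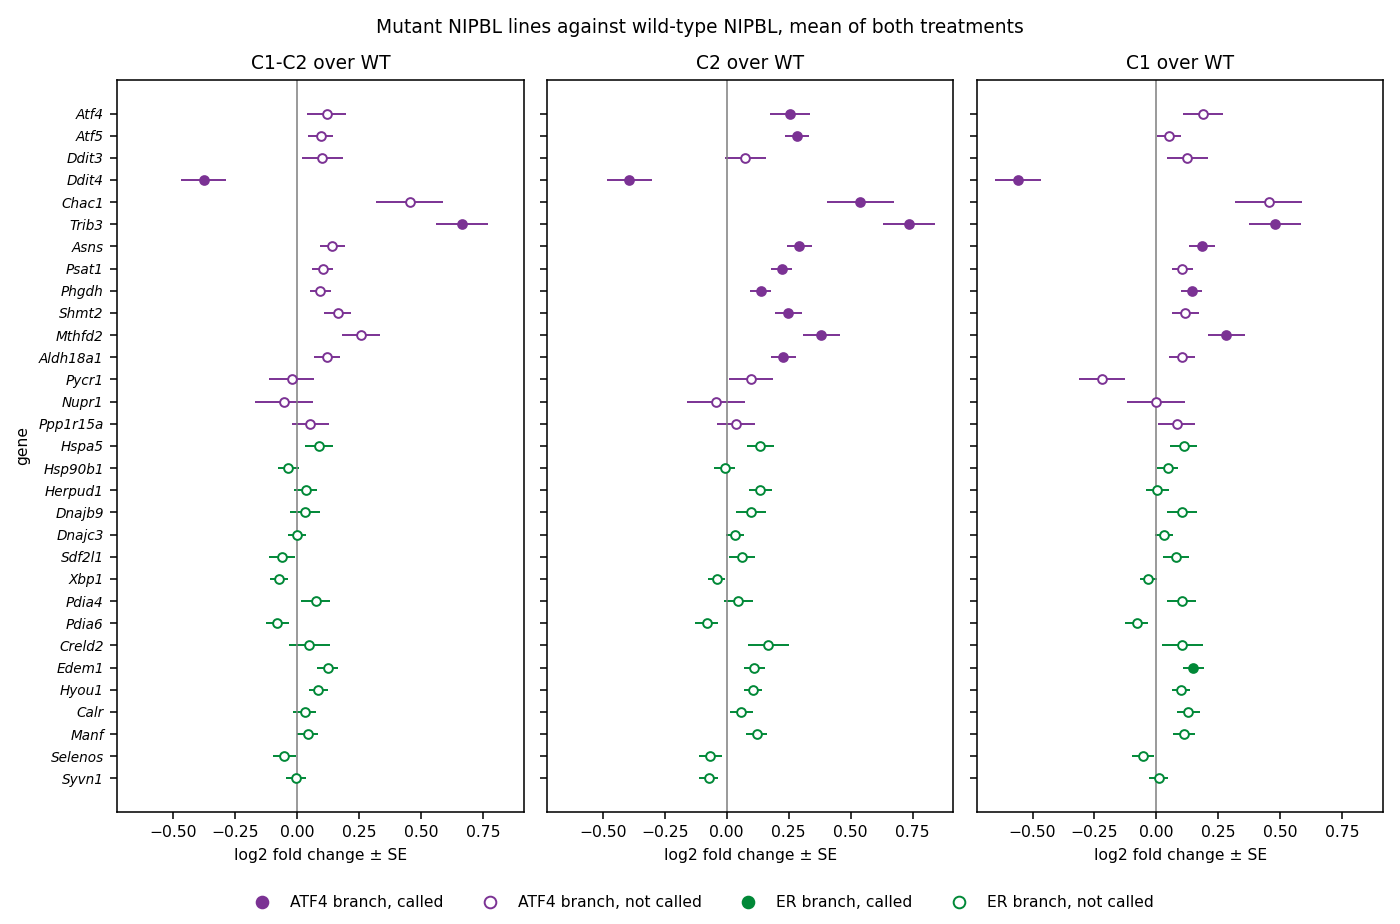
Log2 fold changes ± SE of the 31 tested genes for C1-C2, C2 and C1 over wild-type NIPBL (mean of both treatments, 4 libraries against 4), on a shared axis. ATF4-branch genes are purple and ER-branch genes green, and filled points passed at an adjusted p under 0.05. Trib3 lies at 0.67, 0.73 and 0.48 and Ddit4 at -0.38, -0.39 and -0.56, and 1 ER gene, Edem1 in C1, is filled.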

How the data were processed

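RNA of 24 libraries was depleted of ribosomal RNA and sequenced as stranded total RNA, per the labels' protocols. The values are raw counts per gene as deposited by the authors. Per the submitters' processing notes, which give no order or role, the tools were bcl2fastq 2.20, cutadapt 1.18, STAR 2.7.0f and featureCounts (Subread 2.0.3) on mm10. The annotation and the strand setting are not given in the sources used here. All 34 members have the same coordinates as in GENCODE vM21, which was used here for exon overlaps and GC content.

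Counts were fitted in R 4.3.3 with edgeR 4.0.16 (TMM factors, the default expression filter, robust quasi-likelihood test) with a mean for each of 12 groups and 12 residual degrees of freedom. The filter kept 16934 of 55341 genes, and genes were called at an adjusted p under 0.05 (Benjamini-Hochberg over all genes kept). Standard errors were derived from the test statistic. CPM used library sizes times TMM factors, and the median biological coefficient of variation was 6.43%. The fit was first run on counts simulated with the spread estimated from these data. They held no replicate or handling effect, so such effects were not tested there.

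The members, gene lists and tests were chosen with earlier results of these data known. Values are given in every library for Atf4, Ddit3, Hspa5 and Xbp1 or, over 12 libraries, as lowest, median and highest, and for genes called alike in both knockdown comparisons. Otherwise called genes are named by size of change, up to 6 in each direction and branch. Genes of other lists are named by smallest adjusted p, up to 4 a list. DESeq2 1.42.0 was an alternative. Promoter sequences are RefSeq's (GRCm38.p6). In 10 members an exon overlaps another gene, in 3 of them (Hsp90b1, Pdia4 and Manf) on the same strand. Overlaps on the opposite strand were found in Atf5, Ddit3, Shmt2, Ppp1r15a, Dnajb9, Pdia6 and Syvn1, and also in Hsp90b1 and Manf. Whether reads of these genes were shared was not tested.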

Additional observations from a re-analysis of the deposited data

How the results depend on the processing

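Of 114 calls of a gene in a comparison, 42 were made under every alternative run. Counts of called genes out of 31 were within 1.5 times of those reported except as follows. With only the compared libraries in the fit they were 7 for knockdown in ethanol, 1 for the difference of responses, 1 for C1 against empty vector, and 7 and 4 for C2 and C1-C2 against wild-type NIPBL. DESeq2 gave 1 for the difference of responses and 5 for C1-C2 against wild-type NIPBL. No filter gave 1 for C1 against empty vector and 4 for C1-C2 against wild-type NIPBL. Without the length and GC trend, dexamethasone gave 9 in no-IPTG, 7 in C1-C2, 6 in C2, 6 in C1 and 7 in knockdown cells, and Atf5 (no-IPTG, -0.090) and Sdf2l1 (no-IPTG, -0.049; C2, -0.062) changed sign without passing. With the ethanol libraries only, the fit gave 0 for wild-type NIPBL and 0 for C2 against empty vector, and 0, 2 and 0 for C1-C2, C2 and C1 against wild-type NIPBL; with the dexamethasone libraries only, it gave 0 for C2 against empty vector, and 1 and 5 for C1-C2 and C2 against wild-type NIPBL. Moving replicate 2 of C1-C2 in ethanol to dexamethasone gave 0 for the C1-C2 response and 1 for C1-C2 against wild-type NIPBL. The cause of these shifts was not tested, and the fits that leave libraries out also hold fewer libraries.

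The deviations of same-numbered libraries correlated over all genes with r of -0.043 to 0.155 in ethanol (7 of 15 pairs of groups over 0.1) and -0.221 to 0.18 in dexamethasone (3 of 15), so not every pair passed 0.1 and the libraries were not treated as paired. Yet Hspa5, Creld2 and Pdia4 were higher in replicate 2 in all 12 groups, and Calr and Sdf2l1 in 11 of 12. With the replicate block the counts were 7 for knockdown in ethanol, 17 for dexamethasone in C2, and 5 and 17 for C1-C2 and C2 against wild-type NIPBL. Over all genes the block gave more calls in every comparison. Knockdown in ethanol went from 1213 higher and 1057 lower to 1503 and 1363. C2 against wild-type NIPBL went from 1164 higher and 1013 lower to 1643 and 1434.

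Leaving out each library in turn gave 2 to 3 and 4 to 9 for knockdown in ethanol and dexamethasone. For dexamethasone it gave 10 to 13 in no-IPTG, 8 to 12 in C1-C2, 9 to 14 in C2, 8 to 13 in C1, 6 to 11 in wild-type NIPBL and 8 to 13 in knockdown cells. Against empty vector it gave 0 to 0 for C1-C2, 1 to 7 for C2, 0 to 1 for C1 (the call without replicate 1 of empty vector in dexamethasone) and 1 to 2 for wild-type NIPBL, and against wild-type NIPBL 1 to 3 for C1-C2, 7 to 12 for C2 and 1 to 13 for C1. With 2 libraries a group, small changes of genes at a few CPM, such as Pycr1 and Nupr1, are limited by counting and by spread.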
